A study of Mus with 12 samples.

Results

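Mice with liver tumours labelled MYC-HCC (hepatocellular carcinoma) were given an antibody against PDL1 alone, and their tumours were compared with those of mice given control IgG. The comparison uses 6 of the 12 libraries of the series, taken by their titles: 3 called Anti PDL1, without those given the combination, and 3 called Ctrl IgG. Each library is total RNA from formalin-fixed, paraffin-embedded tumour of 1 mouse, read with the nCounter mouse IO360 panel, in which coloured barcodes hybridised to each transcript are counted without amplification. All 770 panel genes were tested. The other 6 libraries, 3 Anti CTLA4 and 3 Anti PDL1+CTLA4, share the same tumour model and enter the estimate of spread. The sources used here do not give what drives MYC, nor the strain, sex and age of the mice, the antibody clones, the dose or the timing.

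PDL1, encoded by Cd274, sits on tumour and myeloid cells and binds PD-1, the product of Pdcd1, on T cells, which damps signalling through the T cell receptor. Antibodies against PDL1 block this contact. Interferon-gamma, secreted by activated T cells and NK cells, acts through a receptor made of Ifngr1 and Ifngr2. It induces antigen presentation genes, the chemokines Cxcl9 and Cxcl10, and Cd274 itself. Liver tumours also hold macrophages, endothelium, fibroblasts and remaining hepatocytes, and bulk RNA adds all of them together.

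Values are normalized counts with a floor: anything low was listed as 20. Recovered barcode counts totalled 517366 to 832974 per anti-PDL1 library and 480282 to 864464 per IgG library. Values of single tumours are normalized counts in the order of mouse 1, 2 and 3. The level that a listed 20 can stand for reaches 20 to 42.02 in the anti-PDL1 libraries and 20 to 22.08 in the IgG libraries. From 125 to 151 genes were listed at 20 per anti-PDL1 library, against 49 to 91 per IgG library, and 576 genes lay above the floor in all 6. Negative control probes averaged 12.25 to 14.75 counts per anti-PDL1 library and 9.38 to 14.88 per IgG library. The hepatocyte genes Apoe, Fbp1 and Arg1, which mark liver tissue, lay above the floor in all 6 libraries. Anti PDL1 2 stood apart. Its normalization factor was 2.1011, against 0.5623 to 1.2299 in the other libraries of the 6. Its median value was 174.39, against 89.34 to 121.76 in them. Over all 770 genes its median difference from the IgG mean was 0.57 log2 units, against -0.18 in Anti PDL1 1 and 0.0 in Anti PDL1 3. Among the 576 genes, Anti PDL1 2 had 275 more than 1 log2 unit above the IgG mean and 57 more than 1 unit below it. Anti PDL1 1 had 19 and 34, Anti PDL1 3 had 65 and 11, and no IgG mouse had more than 1 and 2 against the mean it belongs to. Across genes, Anti PDL1 2 correlated with the IgG libraries at 0.77 to 0.815, the other anti-PDL1 libraries at 0.932 to 0.967, and the IgG libraries with each other at 0.975 to 0.984. Genes are not independent replicates, so these are descriptions. Part of the results below, not all, are therefore also given without Anti PDL1 2.

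In limma, 23 of the 770 genes passed an adjusted p of 0.05 (2.99%). Spp1 and Ifngr1 rose (0.26% of genes tested) and 21 genes fell (2.73%). All 21 fell to levels at or near the floor. Without an adjustment, 146 genes had a p under 0.05 (19.0%), 71 of them higher (9.22%) and 75 lower (9.74%). The spread between mice was wide: the 95% confidence intervals of the genes had a median half-width of 0.91 log2 units. The median log2 fold change over all genes was 0.07, and 415 genes (53.9%) lay above 0. In 100 genes (13.0%) every anti-PDL1 mouse lay above every IgG mouse. In 55 genes (7.14%) every anti-PDL1 mouse lay below every IgG mouse, with each listed 20 raised to what it can stand for. An exact permutation test of 3 against 3 mice cannot give a two-sided p below 0.1, so such an order passes no test by itself. Among the genes above the floor in all 6 libraries these numbers were 96 of 576 (16.7%) and 40 of 576 (6.94%), and Anti PDL1 2 was the highest mouse in 91 of the 96.

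**Figure D1:**
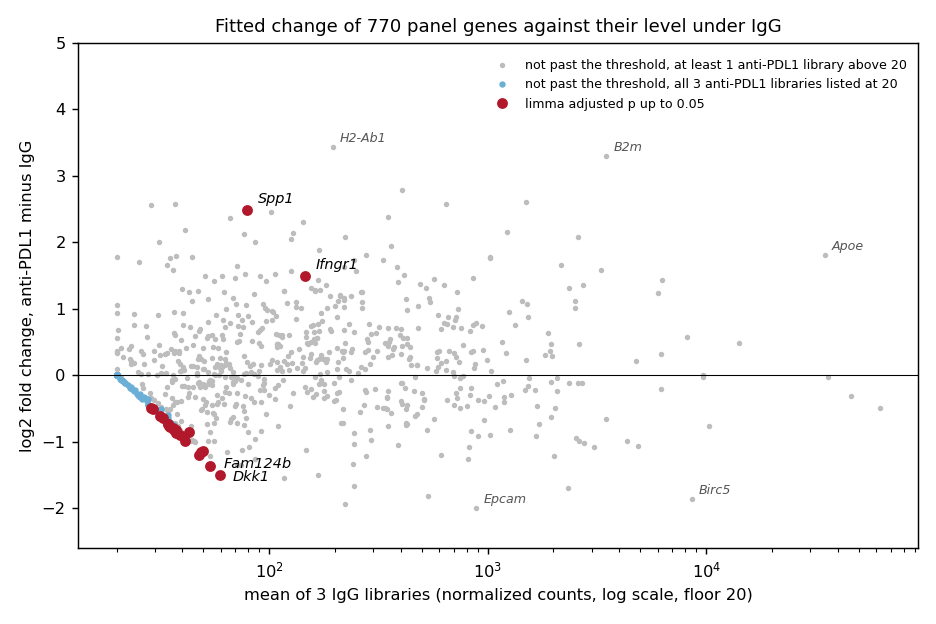
Fitted log2 fold change (anti-PDL1 minus IgG, vertical axis) of the 770 panel genes against the mean of the 3 IgG libraries (horizontal log axis, normalized counts). Red points passed a limma adjusted p of 0.05: Spp1 and Ifngr1 lie above 0, and the 21 genes below 0 have IgG means of 28.72 to 59.44; blue points did not pass and were listed at 20 in all 3 anti-PDL1 libraries.

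The calls were unevenly spread over the levels of the genes. Of the 384 genes with an IgG mean over 100 normalized counts, 247 had a positive log2 fold change (median 0.27) and 1 passed the test. Of the 215 genes with an IgG mean of 25 to 60, 125 were negative (median -0.17), and 47 were listed at 20 in all 3 anti-PDL1 libraries. All 21 genes called lower were among these 215. The share of higher genes among the calls also moved with the scaling. Median scaling, which shifted the median of all genes to -0.28, gave 7 higher and 26 lower genes (21.2% higher), and quantile normalization 5 higher and 10 lower (33.3%), against 2 and 21 (8.7%) as deposited. The 7 higher genes under median scaling were Spp1, Ifngr1, Ptprc, Ctss, H2-Aa, H2-Ab1 and Il2rg (Il2rg, the shared cytokine receptor gamma chain, was chosen after its values were seen).

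Among the 576 genes above the floor, the 10 highest log2 fold changes, 2.36 to 3.43, belonged to H2-Ab1, B2m, H2-Aa, Cd74, Pla1a, Hsd11b1, Spp1, Parp9, Tdo2 and Tap1. Anti PDL1 2 was the highest anti-PDL1 tumour in all 10. The 10 lowest, -2.00 to -1.08, included Epcam, Birc5, Slc7a5, Ren1, Cdkn1a, Slc1a5, Hk2, Hmga1 and Col17a1, with Anti PDL1 2 the lowest in 7. Of these 20 genes Spp1 alone passed the test. Pla1a, a phospholipase that acts on phosphatidylserine, had 95.9, 811 and 140.2 in the anti-PDL1 tumours, against 45.95, 37.7 and 27.6 in the IgG tumours, with no overlap (log2 fold change 2.58, SE 1.04, limma adjusted p = 0.227). Hsd11b1, which regenerates active glucocorticoid in liver, had 616, 24467 and 3339 in the anti-PDL1 tumours, against 899, 489.8 and 535 in the IgG tumours, so Anti PDL1 1 lay within the IgG range (log2 fold change 2.58, SE 1.49, limma adjusted p = 0.404). Cdkn1a, the cell cycle inhibitor p21, had 1282, 345 and 1272 in the anti-PDL1 tumours, against 1232, 2287 and 2499 in the IgG tumours, and the groups overlapped. Slc1a5, a glutamine transporter, had 587, 54.6 and 567 in the anti-PDL1 tumours, against 563, 612 and 649 in the IgG tumours, low in Anti PDL1 2 alone. Hk2, a hexokinase, had 722, 126 and 604 in the anti-PDL1 tumours, against 622, 864 and 976 in the IgG tumours. It was lowest in Anti PDL1 2, with Anti PDL1 3 slightly below every IgG tumour and Anti PDL1 1 within the IgG range.

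Spp1 encodes osteopontin, a secreted phosphoprotein made by macrophages and tumour cells. Its level was 266, 845 and 371 in the anti-PDL1 tumours, against 63.7, 98.96 and 73.97 in the IgG tumours. Every anti-PDL1 tumour lay above every IgG tumour, with Anti PDL1 2 highest. The means were 494 ± 308 and 78.9 ± 18.1 normalized counts (SD, n = 3 each), a 5.58-fold difference in the limma fit (log2 fold change 2.48, SE 0.549, limma adjusted p = 0.0452, 95% confidence interval 1.24 to 3.72). Fewer or more cells of a type and less or more RNA per cell cannot be told apart in bulk tumour RNA, here and below. Without Anti PDL1 2 the log2 fold change was 2.01 (limma adjusted p = 0.119). The call also ended without Anti PDL1 3 (0.126) and without Ctrl IgG 1, 2 or 3 (0.132, 0.0914 and 0.101). It ended with the filters on low values too (0.240 and 0.186), with a common floor (0.148) and without the mean-variance trend (0.0519). With only both groups in the fit, which leaves 4 residual degrees of freedom instead of 8, the limma adjusted p was 0.143. Over 20 alternatives the log2 fold change stayed between 1.94 and 2.84, and 9 of them passed, with limma adjusted p from 0.000118 to 0.240.

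Ifngr1, the ligand-binding chain of the interferon-gamma receptor, was the other gene that rose. It stood at 270.0, 593 and 418 in the anti-PDL1 tumours, against 168, 139 and 128 in the IgG tumours. The groups did not overlap, and the lowest anti-PDL1 tumour was Anti PDL1 1. Means were 427 ± 161 and 145 ± 20.9 normalized counts (SD, n = 3 each), 2.80-fold in the limma fit (log2 fold change 1.49, SE 0.294, limma adjusted p = 0.0302, 95% confidence interval 0.82 to 2.15). Without Anti PDL1 2 it was 1.22 (limma adjusted p = 0.0734), and without Anti PDL1 3 the adjusted p was 0.118. Leaving out Ctrl IgG 1, 2 or 3 gave limma adjusted p of 0.0521, 0.0874 and 0.0750, and the fit of both groups alone 0.210. The call ended with the filters on low values (0.240 and 0.186), a common floor (0.148) and quantile normalization (0.0516) as well. Over 20 alternatives the log2 fold change ran from 1.00 to 1.78, and 9 passed, with limma adjusted p from 0.00026 to 0.240. Ifngr2 (chosen after its values were seen), the signalling chain of the same receptor, had 1115, 1343 and 895 in the anti-PDL1 tumours, against 1214, 1075 and 1238 in the IgG tumours, so its groups overlapped.

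Just short of the threshold came Sfxn1, a mitochondrial serine transporter, and Itpk1, an inositol phosphate kinase. Sfxn1 had 1552, 1672 and 1500.5 in the anti-PDL1 tumours, against 961, 1042 and 836 in the IgG tumours, and the 3 anti-PDL1 tumours were close to each other and above the IgG tumours (log2 fold change 0.74, SE 0.172, limma adjusted p = 0.0528). Itpk1 had 587, 721 and 556 in the anti-PDL1 tumours, against 365, 391 and 381 in the IgG tumours, again without overlap (log2 fold change 0.70, SE 0.164, limma adjusted p = 0.0528). Without Anti PDL1 2 their log2 fold changes were 0.69 and 0.59.

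**Figure D2:**
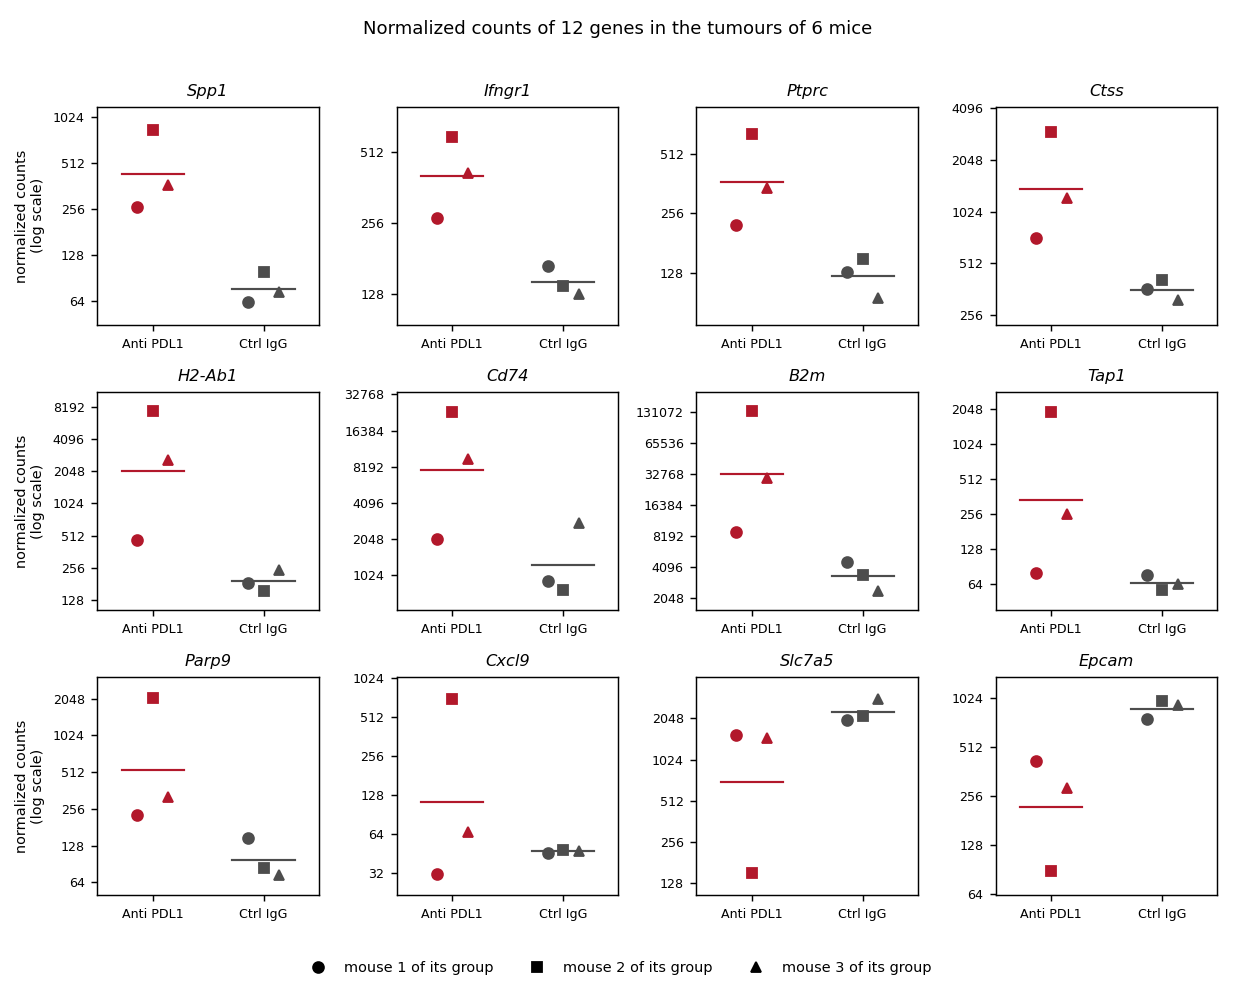
Normalized counts (log axes) of 12 genes in the tumour of each mouse, anti-PDL1 left and Ctrl IgG right, with symbols for mouse 1, 2 and 3 of a group and a bar at the geometric mean. Spp1 and Ifngr1 are above the IgG tumours in all 3 anti-PDL1 tumours, while Cxcl9 is above them in Anti PDL1 2 and Anti PDL1 3 and below them in Anti PDL1 1.

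Under IgG, the means of the 21 falling genes ran from 28.72 to 59.44 normalized counts, and 18 of them were listed at 20 in all 3 anti-PDL1 tumours. A listed 20 gives no level, so each difference is a bound: the IgG mean against the most that the listed values can stand for, on the log2 scale. Dkk1, a secreted inhibitor of Wnt signalling, was listed at 20, 20 and 20 in the anti-PDL1 tumours, against 48.4, 73.7 and 56.3 in the IgG tumours. The bound is at least 2.13-fold lower, with a limma adjusted p = 6.73e-05. Fam124b was listed at 20 in every anti-PDL1 tumour, against 45.1, 56.2 and 58.5 in the IgG tumours, at least 1.93-fold lower. Ttc30a1, a gene of transport along cilia, stood at 20.4, 20 and 20 in the anti-PDL1 tumours, against 42.7, 49.5 and 50.8 in the IgG tumours, at least 1.72-fold lower. In these 3 genes the anti-PDL1 tumours lay below the IgG tumours whatever the listed 20 stands for.

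In the other 18 the order was open to the floor, since 42.02 in Anti PDL1 2 can exceed the lowest IgG tumour. Cd70, whose product binds CD27 on lymphocytes, had 20, 20 and 25.8 in the anti-PDL1 tumours, against 41.1, 58.5 and 49.7 in the IgG tumours and was at least 1.77-fold lower. Among secreted signals, Ccl28, a chemokine of mucosal tissue, was at least 1.66-fold lower. The cytokine genes Il17a, Ifng and Il6 had bounds of 1.36-fold, 1.32-fold and 1.27-fold. The Wnt ligand genes Wnt3a and Wnt10a were at least 1.31-fold and 1.296-fold lower. Adhesion genes among the 21 were Jup, which encodes plakoglobin (at least 1.48-fold), and the cadherin gene Cdh11 (at least 1.39-fold). Ceacam3 was at least 1.44-fold lower, the cyclin gene Ccna1 at least 1.305-fold, and Pnoc and Tnfrsf17, markers of B and plasma cells, at least 1.27-fold and 1.05-fold. Bbs1, Tcl1, Fosl1, Pcdhb11 and Cd40lg complete the 21 (named after their values were seen). Limma adjusted p over the 21 ran from 1.07e-06 for Il6 to 0.0436 for Ccl28, but floor values enter the model as exact and leave little spread. Ctrl IgG 2, the library with the lowest normalization factor, held the highest IgG value in 17 of the 21. Without it 20 genes were called, all lower, and 18 of the 23 were among them. With every library given one common floor at 52.49, 0 of the 21 passed, and 2 other genes, Ccl3 and Tnfrsf25, were called lower (Tnfrsf25 was named after its values were seen). That floor lies within the range of the IgG means of the 21, 28.72 to 59.44, so it replaced IgG values too. The fitted log2 fold change became 0.0 in Bbs1, Ccna1, Cdh11, Ceacam3 and Cd40lg. This alternative therefore cannot decide whether the 21 genes differ. Without Anti PDL1 2 the number of genes called went to 14, and without Anti PDL1 3 to 15.

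**Figure D3:**
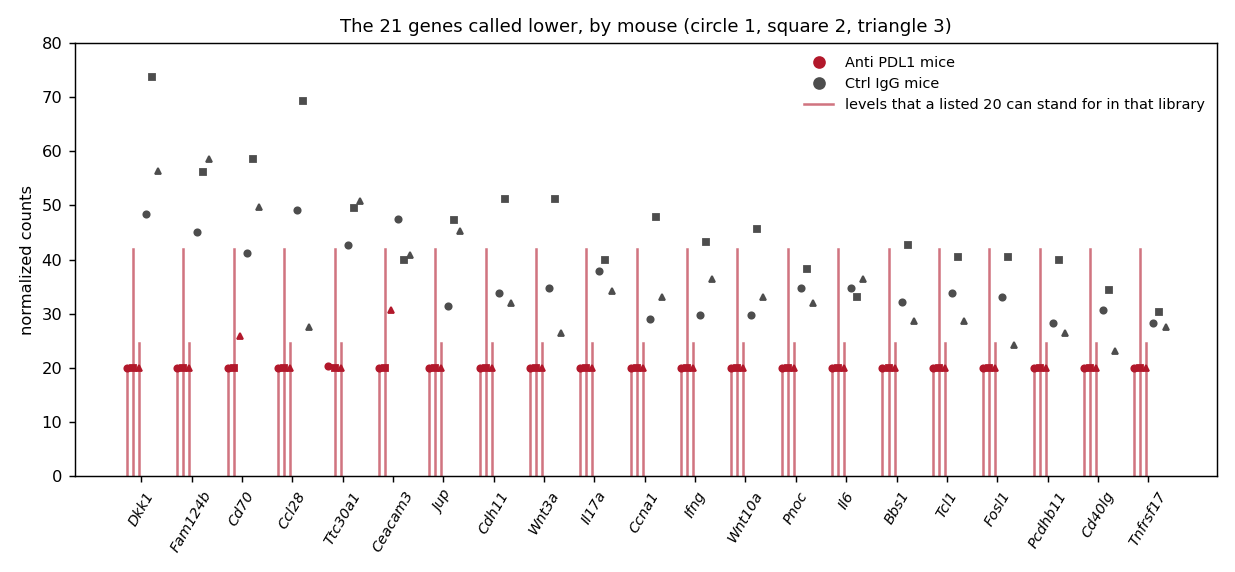
The 21 genes called lower, with normalized counts (linear axis) in each of the 3 anti-PDL1 tumours (red) and the 3 IgG tumours (grey). Vertical red lines span the levels that a listed 20 can stand for, up to 42.02 in Anti PDL1 2; they stay below all IgG points in Dkk1, Fam124b and Ttc30a1 alone.

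Transcripts of the blocked pathway did not pass the test. Cd274 had 80.8, 424 and 127 in the anti-PDL1 tumours, against 81.4, 83.2 and 69.5 in the IgG tumours. Anti PDL1 2 was high, while Anti PDL1 1 lay inside the IgG range (log2 fold change 1.06, SE 0.555, limma adjusted p = 0.351; log2 fold change 0.37 without Anti PDL1 2). Pdcd1lg2, the gene of PDL2, the second ligand of PD-1, went the other way with 42.7, 20 and 25.8 in the anti-PDL1 tumours, against 74.2, 89.4 and 58.5 in the IgG tumours. Every anti-PDL1 tumour was below every IgG tumour (log2 fold change -1.35, SE 0.435, limma adjusted p = 0.136, a difference of listed values with 1 library at the floor). Pdcd1 was listed at 20 in all 3 anti-PDL1 tumours and had 22.6, 41.6 and 47.5 in the IgG tumours (limma adjusted p = 0.271). Cd80, which binds both CTLA4 and PDL1, had 44.01, 73.5 and 62.7 in the anti-PDL1 tumours, against 50.8, 69.7 and 56.3 in the IgG tumours and a log2 fold change of 0.01. The 4 measured members of the pathway had a median log2 fold change of -0.39, beside 0.07 for all genes.

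Other checkpoint genes differed between mice. Lgals9, the gene of galectin-9, had 3375, 14842 and 3847 in the anti-PDL1 tumours, against 2313, 2050.1 and 2688 in the IgG tumours, with the groups apart and Anti PDL1 2 far above the rest (log2 fold change 1.31, SE 0.622, limma adjusted p = 0.298). Ctla4 was listed at 20 in every anti-PDL1 tumour, against 33.05, 52.9 and 34.2 in the IgG tumours (limma adjusted p = 0.122). Cd86, the costimulatory ligand on antigen-presenting cells, had 183, 384 and 168 in the anti-PDL1 tumours, against 156, 178 and 155 in the IgG tumours and overlapped. None of the 15 measured members passed, and their median was 0.25, or -0.10 under median scaling. Nectin2 and Pvr were, with Lgals9, the 3 members higher in every anti-PDL1 tumour, a share near the 13.0% of all genes and 16.7% of those above the floor in that order. Havcr2 was listed at 20 in all 6 libraries (Nectin2, Pvr and Havcr2 were named after their values were seen).

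Several transcripts of the T cell marker list lay at or near the floor, and none of the list passed the test; Cd40lg and Il17a, which T cells also make, are not in it and are among the 21 called lower. Cd8a, a chain of the CD8 coreceptor of cytotoxic T cells, was listed at 20 in all 3 anti-PDL1 tumours, against 24.99, 31.5 and 37.5 in the IgG tumours (limma adjusted p = 0.0528). Cd8b1, the other chain, had 20, 42.02 and 20 in the anti-PDL1 tumours, against 50.8, 62.4 and 44.2 in the IgG tumours, so the anti-PDL1 tumours lay below (limma adjusted p = 0.0882). Cd4 overlapped, with 102, 96.7 and 72.6 in the anti-PDL1 tumours, against 50.8, 70.8 and 108 in the IgG tumours. Lck, the kinase that starts T cell receptor signalling, had 55.8, 328 and 134 in the anti-PDL1 tumours, against 77.4, 73.7 and 65.1 in the IgG tumours, high in Anti PDL1 2 and below all IgG tumours in Anti PDL1 1. Of the 16 measured T cell markers 0 passed, the median was -0.22, and it was -0.40 without Anti PDL1 2. Foxp3, the defining gene of regulatory T cells, was listed at 20 in all 6 libraries, and the 7 measured regulatory T cell markers had a median of -0.16. Ikzf2, one of them, had 21.02, 20 and 20 in the anti-PDL1 tumours, against 38.7, 38.8 and 41.95 in the IgG tumours (limma adjusted p = 0.0939).

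Cytotoxic genes followed no common direction. Ifng was the 1 of 12 that passed (2.73% of all genes were called lower), listed at 20 in the anti-PDL1 tumours and at 29.8, 43.3 and 36.4 in the IgG tumours. Gzmb, the gene of granzyme B, overlapped with 33.5, 63.03 and 46.7 in the anti-PDL1 tumours, against 35.5, 39.9 and 34.2 in the IgG tumours. Prf1, the gene of perforin, was listed at 20 in all 3 anti-PDL1 tumours and in 1 IgG tumour. Klrk1, the gene of the activating receptor NKG2D, had 22.3, 246 and 63.95 in the anti-PDL1 tumours and was listed at 20 in all 3 IgG tumours (limma adjusted p = 0.271). The value of Anti PDL1 1 exceeds the IgG floor limit of 22.08 by little. Ncr1, a receptor of NK cells, had 34.8, 128 and 40.6 in the anti-PDL1 tumours, against 37.1, 41.05 and 33.1 in the IgG tumours, with Anti PDL1 2 alone standing out. The list had a median of -0.06 and the 5 measured NK cell markers one of 0.32, and 0 of those 5 passed. B and plasma cell markers had a median of -0.50, with Tnfrsf17 and Pnoc called lower of 9 (2.73% of all genes were called lower). All 21 genes called lower, Ifng included, were among the 215 genes with an IgG mean of 25 to 60. Of the 9 B and plasma cell genes 1 was above the floor in all 6 libraries. Cd79a, a chain of the B cell receptor, had 20, 20 and 25.8 in the anti-PDL1 tumours, against 45.1, 56.2 and 35.3 in the IgG tumours.

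Macrophage genes lay mostly above the IgG level, without passing the test. All 18 measured macrophage and monocyte markers had a positive log2 fold change, with a median of 0.94 (all genes 0.07), and 0 passed the test. Per mouse the median difference from the IgG mean was 0.25 in Anti PDL1 1, 1.86 in Anti PDL1 2 and 0.79 in Anti PDL1 3. Over all genes the same medians were -0.18, 0.57 and 0.0. The fitted median of the markers was 0.55 without Anti PDL1 2, and 0.59 under median scaling. In 6 of the 18 every anti-PDL1 tumour lay above every IgG tumour, an order seen in 13.0% of all genes and 16.7% of those above the floor: Ctss, Cd84, Adgre1, Mrc1, Fcgr1 and Cybb (Fcgr1 and Cybb were named after their values were seen).

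Ctss encodes cathepsin S, which trims the invariant chain before peptides load on class II molecules. Its level was 720.0, 2979 and 1227 in the anti-PDL1 tumours, against 363, 409 and 314 in the IgG tumours, with the groups well apart (log2 fold change 1.94, SE 0.468, limma adjusted p = 0.0602; 1.38 without Anti PDL1 2). Ptprc, the pan-leukocyte gene of CD45, had 225, 645 and 346 in the anti-PDL1 tumours, against 129, 151 and 96.05 in the IgG tumours, again without overlap (log2 fold change 1.57, SE 0.374, limma adjusted p = 0.0564; 1.17 without Anti PDL1 2). Cd84, a receptor of myeloid cells, was even across the treated mice at 194, 229 and 178 in the anti-PDL1 tumours, against 87.1, 119 and 117 in the IgG tumours (log2 fold change 0.90, SE 0.262, limma adjusted p = 0.107). Adgre1, the gene of the macrophage antigen F4/80, had 286, 1069 and 524 in the anti-PDL1 tumours, against 239, 235 and 238 in the IgG tumours (log2 fold change 1.19, SE 0.454, limma adjusted p = 0.202). The IgG tumours were nearly equal, and Anti PDL1 1 was only a little above them. Mrc1, the mannose receptor CD206, had 496, 2929 and 1161 in the anti-PDL1 tumours, against 355, 423 and 381 in the IgG tumours, with Anti PDL1 1 again nearest to IgG. C1qa, a complement component made by macrophages, overlapped with 1845, 5803 and 2685 in the anti-PDL1 tumours, against 1166, 1281 and 2088 in the IgG tumours. Cd68, a lysosomal antigen of macrophages, overlapped as well, with 1355, 943 and 898 in the anti-PDL1 tumours, against 655, 804 and 1045 in the IgG tumours. Csf1r, the receptor for the growth factor CSF1, had 625, 3059 and 1516 in the anti-PDL1 tumours, against 803, 702 and 1073 in the IgG tumours, so Anti PDL1 1 lay below every IgG tumour and the other anti-PDL1 tumours above them.

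Among genes of macrophage states, 6 of 9 inflammatory and 6 of 9 alternative genes were positive, beside 53.9% of all genes. Without Anti PDL1 2 the median of the alternative genes was -0.09, beside -0.07 for all genes. In the alternative genes Mrc1, Tgfb1 and Vegfa every anti-PDL1 tumour lay above every IgG tumour (13.0% of all genes), and in Ccl22 below (7.14%). Among 9 inflammatory genes (median 0.48, but -0.04 without Anti PDL1 2) Il6 fell, and Nos2, the inducible nitric oxide synthase, overlapped with 32.2, 75.6 and 40.6 in the anti-PDL1 tumours, against 26.6, 36.5 and 47.5 in the IgG tumours. Among 9 alternative genes (median 0.21, and -0.14 under median scaling) Arg1, arginase 1, which hepatocytes also make, had 1624, 22549 and 4059 in the anti-PDL1 tumours, against 1634, 962 and 1082 in the IgG tumours. Anti PDL1 1 lay within the IgG range and Anti PDL1 2 far above it. Of 13 genes in the neutrophil list (median 0.37, but -0.23 without Anti PDL1 2) 10 were positive, and Ceacam3 alone passed the test, as lower. Which cells express Ceacam3 in these tumours was not tested. In S100a9 and Fcgr4 every anti-PDL1 tumour lay above every IgG tumour, an order seen in 13.0% of all genes (both were named after their values were seen). Ly6g, which marks mouse neutrophils, was listed at 20, 20 and 24.6 in the anti-PDL1 tumours, against 34.7, 65.2 and 36.4 in the IgG tumours. Cxcl5, a chemokine that draws neutrophils, was listed at 20 in each anti-PDL1 tumour, against 33.9, 49.5 and 28.7 in the IgG tumours (limma adjusted p = 0.0528). Dendritic cell markers (9 measured, median 0.02) and mast cell markers (6 measured, median -0.04) had 0 calls. Ccl22, a chemokine of dendritic cells and macrophages, was lower in every anti-PDL1 tumour, with 42.04, 63.03 and 46.7 in the anti-PDL1 tumours, against 71.7, 93.3 and 109 in the IgG tumours (log2 fold change -0.84, SE 0.249, limma adjusted p = 0.109).

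The classical class II chains lay above IgG in each anti-PDL1 tumour, without passing the test. H2-Ab1, which encodes the beta chain, had 462, 7402 and 2590.2 in the anti-PDL1 tumours, against 184, 156 and 245 in the IgG tumours. H2-Aa, which encodes the alpha chain, had 809, 8043 and 3055 in the anti-PDL1 tumours, against 316, 339.6 and 565 in the IgG tumours. Neither gene overlapped between the groups, with Anti PDL1 1 nearest to the IgG tumours and Anti PDL1 2 highest. Their log2 fold changes were 3.43 (SE 0.914, limma adjusted p = 0.0847) and 2.78 (SE 0.764, limma adjusted p = 0.0882), and 2.51 and 2.00 without Anti PDL1 2. Cd74, the invariant chain, had 2042, 23179 and 9524 in the anti-PDL1 tumours, against 912, 777 and 2798 in the IgG tumours. Anti PDL1 1 lay below Ctrl IgG 3, so the groups overlapped (log2 fold change 2.61, SE 0.868, limma adjusted p = 0.143; 1.81 without Anti PDL1 2). Of the 9 measured class II genes 7 were positive, the median was 0.94, and 0 passed. It was 0.16 without Anti PDL1 2.

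Class I genes varied widely between the anti-PDL1 mice. B2m, the light chain of all class I molecules, had 8991, 134399.6 and 30071 in the anti-PDL1 tumours, against 4583, 3490.1 and 2406 in the IgG tumours, so that each treated tumour was above the IgG tumours and Anti PDL1 2 was by far the highest (log2 fold change 3.29, SE 1.06, limma adjusted p = 0.136; 2.28 without Anti PDL1 2). Tap1, a subunit of the transporter that carries peptides to class I, had 80.8, 1927 and 256 in the anti-PDL1 tumours, against 77.4, 57.4 and 64.03 in the IgG tumours. Psmb8, a subunit of the immunoproteasome, had 255, 4305 and 733 in the anti-PDL1 tumours, against 249, 196 and 219 in the IgG tumours. Psmb10, another subunit, had 363, 2187 and 505 in the anti-PDL1 tumours, against 279, 204 and 269 in the IgG tumours. In Tap1 and Psmb8 Anti PDL1 1 was only slightly above the highest IgG tumour. Of 14 measured genes 13 were positive (median 1.37) and 0 passed. Per mouse the median was -0.03 in Anti PDL1 1, 3.22 in Anti PDL1 2 and 1.04 in Anti PDL1 3, and without Anti PDL1 2 the fitted median was 0.41. H2-K1, a classical class I heavy chain (named after its values were seen), was listed at 20 in all 6 libraries.

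Interferon response genes showed the same split. All 24 measured type I interferon response genes were positive (median 1.34, 0 passed), and in 10 every anti-PDL1 tumour lay above every IgG tumour (13.0% of all genes). The median per mouse was 0.37, 2.85 and 0.64 in Anti PDL1 1, 2 and 3, and 0.42 without Anti PDL1 2. Parp9 and Dtx3l encode partner proteins of the interferon response. Parp9 had 229, 2082 and 319.8 in the anti-PDL1 tumours, against 147, 84.3 and 73.97 in the IgG tumours (log2 fold change 2.45, SE 0.820, limma adjusted p = 0.145). Dtx3l had 326, 1710.3 and 323 in the anti-PDL1 tumours, against 143, 125 and 117 in the IgG tumours (log2 fold change 2.13, SE 0.677, limma adjusted p = 0.132). Neither overlapped between the groups. Ifitm2, an interferon-induced membrane protein that restricts viruses, had 6255, 16605 and 9205 in the anti-PDL1 tumours, against 3639, 2745 and 3536 in the IgG tumours (log2 fold change 1.59, SE 0.471, limma adjusted p = 0.109), with all treated tumours above.

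Of 19 interferon-gamma signalling and response genes 17 were positive (median 1.06), and Ifngr1 was the 1 that passed (0.26% of all genes were called higher). Per mouse the median was -0.07, 2.40 and 0.33, and without Anti PDL1 2 the fitted median was 0.00. Irf1, a transcription factor induced by interferon-gamma, had 385, 1637 and 392 in the anti-PDL1 tumours, against 261, 237 and 290.4 in the IgG tumours, with no overlap (log2 fold change 1.26, SE 0.543, limma adjusted p = 0.248). Cxcl9, a chemokine that draws T cells, had 31.5, 712 and 66.4 in the anti-PDL1 tumours, against 45.95, 48.4 and 47.5 in the IgG tumours, so Anti PDL1 1 was below every IgG tumour and Anti PDL1 2 far above (log2 fold change 1.27, SE 0.977, limma adjusted p = 0.517; -0.04 without Anti PDL1 2). Cxcl10 ran in another order, with 765, 458 and 226 in the anti-PDL1 tumours, against 153, 177 and 286 in the IgG tumours, highest in Anti PDL1 1.

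**Figure D4:**
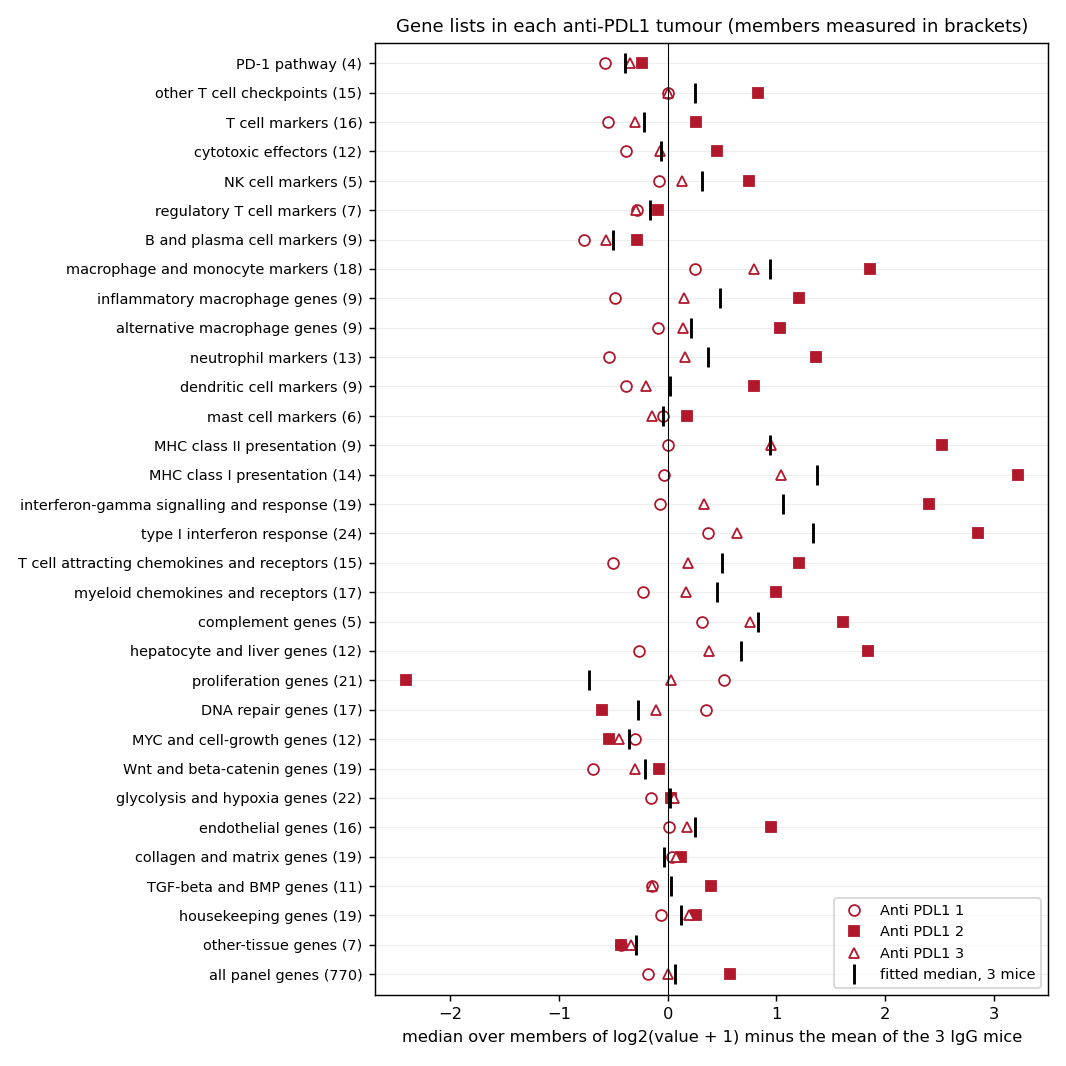
Median over the members of each gene list of log2(value + 1) minus the mean of the 3 IgG mice (horizontal axis), for Anti PDL1 1, 2 and 3 separately, with the number of members measured in brackets. Anti PDL1 2 lies at 3.22 for class I genes, 2.85 for type I interferon genes and -2.41 for proliferation genes, where Anti PDL1 1 lies at -0.03, 0.37 and 0.52. Over all panel genes the medians of Anti PDL1 1, 2 and 3 are -0.18, 0.57 and 0.0.

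The 2 chemokine lists, which do not hold Ccl28, and the complement list had 0 calls. Cxcr3, the receptor of Cxcl9 and Cxcl10, overlapped with 28.9, 75.6 and 31.98 in the anti-PDL1 tumours, against 37.9, 34.3 and 27.6 in the IgG tumours. Ccl3, a chemokine of macrophages, was lower in every anti-PDL1 tumour, with 35.5, 20 and 31.98 in the anti-PDL1 tumours, against 62.9, 69.2 and 60.7 in the IgG tumours (limma adjusted p = 0.0820). Cx3cr1, the fractalkine receptor, was lower as well, with 97.2, 92.5 and 78.7 in the anti-PDL1 tumours, against 113, 135 and 124 in the IgG tumours (limma adjusted p = 0.389). Cxcl14 was higher in every one, with 112, 96.7 and 71.3 in the anti-PDL1 tumours, against 60.5, 48.9 and 48.6 in the IgG tumours (limma adjusted p = 0.184). The 15 T cell attracting and 17 myeloid chemokine genes had medians of 0.50 and 0.45, or -0.11 and 0.12 without Anti PDL1 2. C2, a component of the classical pathway, had 507, 3112 and 823 in the anti-PDL1 tumours, against 418, 314 and 266 in the IgG tumours, without overlap. C5ar1, the receptor for C5a, had 93.9, 202 and 128 in the anti-PDL1 tumours, against 72.5, 71.4 and 81.7 in the IgG tumours, also without overlap. The 5 measured complement genes were all positive (median 0.83, or 0.54 without Anti PDL1 2).

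Hepatocyte and proliferation genes moved with the tumour that stood apart. Apoe, an apolipoprotein of hepatocytes and macrophages, had 44142, 455655 and 87838 in the anti-PDL1 tumours, against 40050.2, 29255 and 35228 in the IgG tumours, and in Anti PDL1 2 it made up 27.68% of the summed values of the library. Fbp1, a gluconeogenic enzyme, had 976, 43882 and 6287 in the anti-PDL1 tumours, against 3147, 1495 and 1840.4 in the IgG tumours. Tdo2, which degrades tryptophan in hepatocytes, had 184, 15151 and 2024 in the anti-PDL1 tumours, against 437, 343 and 266 in the IgG tumours. In both Anti PDL1 2 was highest by far, and Anti PDL1 1 lay below every IgG tumour. Proliferation genes ran against them. Birc5, the gene of survivin, had 5902, 427 and 5038 in the anti-PDL1 tumours, against 7809, 7693 and 10248 in the IgG tumours, lower in all 3 and lowest in Anti PDL1 2. Mki67, the gene of the Ki-67 antigen, had 4608, 779.5 and 3495 in the anti-PDL1 tumours, against 2521, 2152 and 1251 in the IgG tumours. For Mki67 Anti PDL1 2 was lowest, while the other anti-PDL1 tumours were above every IgG tumour. The 12 liver genes had a median of 0.67 (-0.26, 1.84 and 0.38 in Anti PDL1 1, 2 and 3) and the 21 proliferation genes one of -0.72 (0.52, -2.41 and 0.03, and 0.22 without Anti PDL1 2). Ccna1 was the 1 called among them. The part of the hepatocyte content in the results was not tested beyond a fit with the liver list as covariate, which called 7 genes higher, Spp1 and Ifngr1 among them, and 22 lower. Of these 29 genes 18 were among the 23. With that covariate the median of all genes was -0.08, and the medians were 0.68 for macrophage markers, 0.38 for class I, 0.19 for class II, 0.71 for type I interferon, 0.43 for interferon-gamma and 0.17 for proliferation genes.

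Epcam and Slc7a5 were lower in all 3 anti-PDL1 tumours, without passing the test. Epcam, an epithelial adhesion gene, had 418, 88.2 and 284 in the anti-PDL1 tumours, against 755, 973 and 922 in the IgG tumours, with Anti PDL1 2 lowest (log2 fold change -2.00, SE 1.00, limma adjusted p = 0.339). Slc7a5, which imports large neutral amino acids, had 1554, 151 and 1481 in the anti-PDL1 tumours, against 1996, 2142 and 2825 in the IgG tumours, also lower in all 3 (log2 fold change -1.70, SE 0.963, limma adjusted p = 0.400). Hmga1, a chromatin protein, overlapped with 3034, 324 and 3067 in the anti-PDL1 tumours, against 3308, 2617 and 3292 in the IgG tumours, low in Anti PDL1 2 alone. Myc itself had 119, 523 and 125 in the anti-PDL1 tumours, against 126, 103 and 80.6 in the IgG tumours, high in Anti PDL1 2 and within the IgG range in Anti PDL1 1 and 3. The sources used here do not say whether its probe reads the MYC that drives the tumours. The 12 MYC and cell-growth genes had a median of -0.36 and the 17 DNA repair genes one of -0.27 (0.12 without Anti PDL1 2), with 0 calls in either. Nbn, a sensor of DNA breaks, was above in all 3, with 558, 702 and 469.8 in the anti-PDL1 tumours, against 376, 376 and 294 in the IgG tumours (limma adjusted p = 0.136).

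Of 19 Wnt and beta-catenin genes 4 fell: Dkk1, Wnt3a, Wnt10a and Jup, each listed at 20 in all 3 anti-PDL1 tumours (2.73% of all genes fell). All 21 genes called lower were among the 215 genes with an IgG mean of 25 to 60. The median of the Wnt list was -0.21, beside -0.17 for those 215 genes. Of 22 glycolysis and hypoxia genes 0 passed (median 0.02). Vegfa, the vascular growth factor, had 423, 3215 and 763 in the anti-PDL1 tumours, against 420.0, 411 and 329 in the IgG tumours, with Anti PDL1 2 high and the groups just apart. Hif1a, the hypoxia factor, had 278, 279 and 252 in the anti-PDL1 tumours, against 369, 361 and 304 in the IgG tumours, lower in every anti-PDL1 tumour (limma adjusted p = 0.399).

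Of the endothelial, matrix and TGF-beta lists, Spp1 alone passed the test. Cdh5, the cadherin of endothelial junctions, had 279, 708 and 344 in the anti-PDL1 tumours, against 186, 128 and 199.8 in the IgG tumours, above in all 3 (log2 fold change 1.28, SE 0.335, limma adjusted p = 0.0820). Selp, the gene of P-selectin, had 21.02, 20 and 25.8 in the anti-PDL1 tumours, against 49.2, 66.3 and 45.3 in the IgG tumours, below in all 3 (log2 fold change -1.22, SE 0.304, limma adjusted p = 0.0704). Sele, the gene of E-selectin, had 20, 20 and 24.6 in the anti-PDL1 tumours, against 43.5, 45.5 and 25.4 in the IgG tumours. Of 16 endothelial genes 11 were positive and 0 passed (median 0.25, or -0.10 under median scaling). In Cdh5, Pecam1, Flt1 and Mmrn2 every anti-PDL1 tumour lay above every IgG tumour (13.0% of all genes), and in Selp alone below (7.14%). Pecam1, Flt1 and Mmrn2 were named after their values were seen. Among 19 collagen and matrix genes (median -0.03) Spp1 was the 1 called. Thy1, a surface protein of fibroblasts and T cells, had 116, 141 and 63.95 in the anti-PDL1 tumours, against 47.6, 29.8 and 51.9 in the IgG tumours, above in all 3 (log2 fold change 1.26, SE 0.405, limma adjusted p = 0.136). Col17a1, an anchoring collagen, had 37.4, 46.2 and 28.3 in the anti-PDL1 tumours, against 70.9, 109 and 61.8 in the IgG tumours, below in all 3 (log2 fold change -1.08, SE 0.415, limma adjusted p = 0.203). TGF-beta and BMP genes (11 measured, median 0.03) had 0 calls. Pdzk1ip1, a small membrane protein of epithelia, had 142, 143 and 77.5 in the anti-PDL1 tumours, against 49.2, 22.5 and 34.2 in the IgG tumours (log2 fold change 1.76, SE 0.476, limma adjusted p = 0.0847), with no overlap.

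The 7 measured genes typical of tissues other than liver had a median of -0.29, beside -0.17 for all genes with an IgG mean of 25 to 60, and 0 passed. Ren1, the renin gene of the kidney, had 22.3, 84.04 and 30.8 in the anti-PDL1 tumours, against 108, 148 and 96.05 in the IgG tumours, lower in every anti-PDL1 tumour. Sox10, a neural crest factor, was listed at 20 in every anti-PDL1 tumour, against 21.8, 36.5 and 25.4 in the IgG tumours. The 19 housekeeping genes had a median of 0.12.

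The anti-PDL1 tumours were also set beside those of the other 2 treated groups. Against anti-CTLA4 alone, 0 of 770 genes passed in limma (0.0%), and 20 had an unadjusted p under 0.05 (2.6%), 10 higher (1.3%) and 10 lower (1.3%). Against the combination, 0 passed (0.0%), and 5 had an unadjusted p under 0.05 (0.649%), 1 higher (0.13%) and 4 lower (0.519%). The smallest limma adjusted p was 1.0 in both, and the 95% confidence intervals had a median half-width of 0.91 log2 units, so they do not show that the groups are alike. Spp1 had 266, 845 and 371 in the anti-PDL1 tumours, against 171, 210.0 and 56.2 under anti-CTLA4 and 266, 273 and 192 under the combination. Its log2 difference was 1.78 from anti-CTLA4 (95% confidence interval 0.54 to 3.02) and 0.86 from the combination (-0.38 to 2.09). Ifngr1 differed by 0.30 (-0.36 to 0.96) and 0.50 (-0.17 to 1.16). Prdm1, a factor of plasma cells and effector T cells, had 30.9, 60.9 and 30.8 in the anti-PDL1 tumours, against 76.4, 83.99 and 64.6 under anti-CTLA4 and 58.7, 64.5 and 70.05 under the combination, lower than every tumour of the first of these groups. Dll4, a Notch ligand of endothelium, had 153, 239.5 and 164 in the anti-PDL1 tumours, against 351, 328 and 265 under anti-CTLA4.

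**Figure D5:**
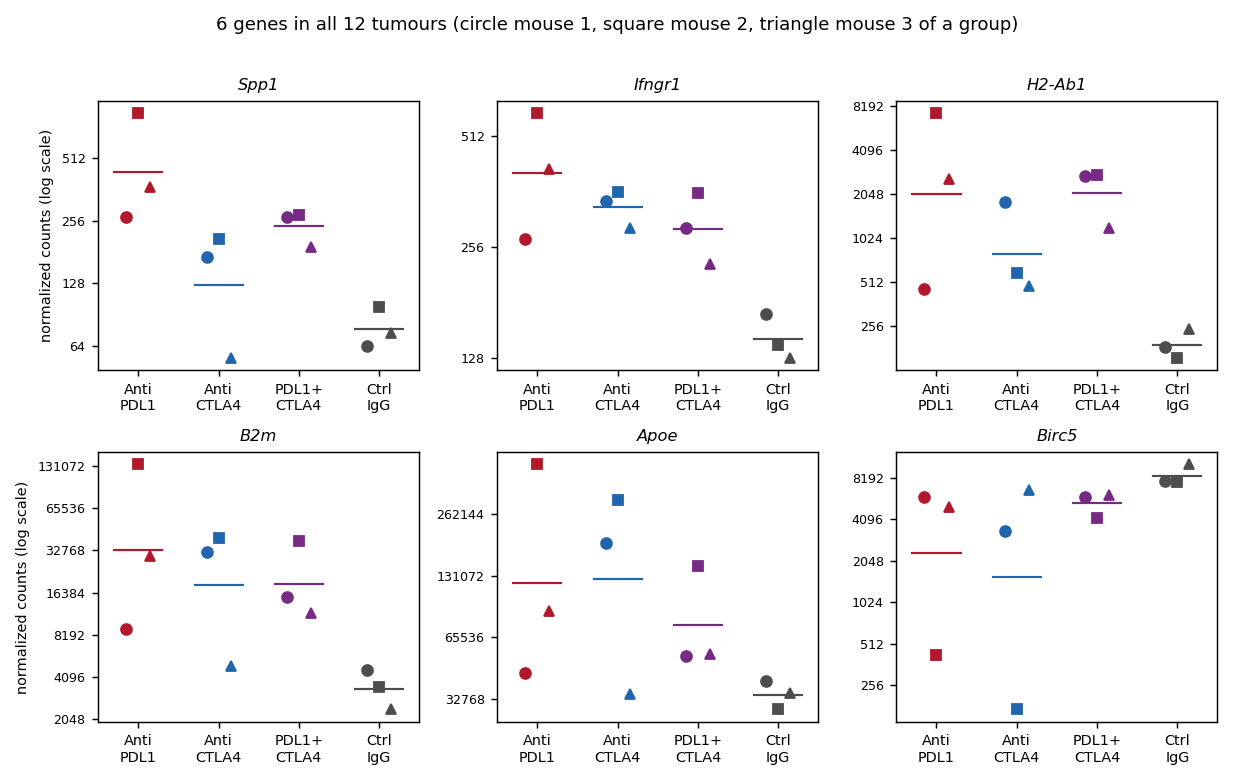
Normalized counts (log axes) of 6 genes in all 12 tumours, with the anti-PDL1 group first, then anti-CTLA4, the combination and Ctrl IgG, symbols for mouse 1, 2 and 3 of each group, and a bar at the geometric mean. Spp1 is above the IgG tumours in all anti-PDL1 tumours, and Apoe runs from 44142 to 455655 within the anti-PDL1 group.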

How the data were processed

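The 6 libraries of the comparison, and 6 of the other treated groups, are nCounter measurements of bulk tumour RNA. The deposited values are signal, barcode counts that the authors scaled by 1 factor per library and listed as 20 where low; the sources used here name neither the software nor the normalization method. Scaling steps recovered from the values gave the factors, the totals and the level that a listed 20 can stand for. Control probes were left out. Analysis used log2(value + 1) in limma 3.58.1 (R 4.3.3) with a mean-variance trend, 4 group means over 12 libraries, two-sided tests, Benjamini-Hochberg adjustment over 770 genes and a threshold of 0.05. A fold change on this scale understates that of low genes. Intervals are those of the fit over mice.

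The 31 gene lists (374 distinct genes measured) and the genes to be named were chosen with earlier results of these data known. Named genes are those past the threshold (up to 12 per direction, filled to 6 by smallest p), the 10 highest and 10 lowest above the floor in all 6 libraries, the 3 smallest p of each list, a set of fixed genes, and 3 per direction in the other comparisons. Lists received no test. No label says that a replicate number links mice. A criterion for pairing, correlations over 0.1 in all 3 same-numbered libraries, was not met between anti-PDL1 and IgG or anti-CTLA4 mice. It was met for anti-PDL1 and combination mice (0.64, 0.66 and 0.30), where the block also gave 0 calls. Libraries of unlike number also correlated, Anti PDL1 1 with Anti CTLA4 3 at 0.82, so meeting it does not show that the numbers pair mice. Panel names matched the RefSeq table of GRCm38.p6 as 764 current symbols and 6 synonyms. The fit was tested on simulated normal values without a floor, so that test does not cover genes listed at the floor. Alternatives were filters, a pseudocount of 10, a common floor, scaling, variance model, sample weights, the 2 groups alone, a replicate block, a hepatocyte covariate and each library left out. A planned test on whole counts was left out, since scaled and floored values are no counts.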

Additional observations from a re-analysis of the deposited data

How the results depend on the processing

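The count of 23 genes called between anti-PDL1 and IgG rested on genes at the floor. It was 0 with a filter at 50 in at least 3 libraries (606 genes tested, 91 with an unadjusted limma p under 0.05) and 0 among the 519 genes above the floor in all 12 libraries (79 with an unadjusted limma p under 0.05). A common floor at 52.49, which lies within the range of the IgG means of the genes called lower, gave 2. Quantile normalization gave 15, median scaling over the genes above the floor 44 (7 higher, 37 lower) and sample weights, whose estimation did not converge, 282. With the 2 groups alone it was 8, of which 7 were among the 23. Leaving out 1 library in turn gave 14 to 32, lowest without Anti PDL1 2 and highest without Ctrl IgG 3. The 2 groups alone and without Anti PDL1 2, an alternative added after the data were seen, gave 2. With the replicate number as a block 21 genes were called, 17 of them shared with the 23. Same-numbered anti-PDL1 and IgG libraries deviated with correlations of -0.31, -0.16 and 0.08. Of 3 anti-PDL1 libraries 1 correlated best with its own number, so no pairing of these groups by number was seen. With anti-CTLA4 they were -0.43, 0.73 and 0.47. With the combination they were 0.64, 0.66 and 0.30, and each anti-PDL1 library correlated best with its own number; with the block 0 genes were called there and 14 had an unadjusted limma p under 0.05. The cause of these changes was not tested. Against anti-CTLA4 the count of 0 became 236 with sample weights and 0 to 1 when a library was left out (1 without Anti CTLA4 3); against the combination it became 61 with sample weights, and the other alternatives run gave 0. Signs of list medians near 0 turned with the scaling: under median scaling those of the checkpoint, NK cell, alternative macrophage, dendritic cell, glycolysis, endothelial, TGF-beta and housekeeping lists were negative. The medians of the lists for macrophages, both MHC classes and both interferon responses were positive under each scaling run. The planned count test was not run.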
